A study of Mus musculus with 6 samples.

Results

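The genes described here are 28 genes of cholesterol synthesis, sensing, uptake and efflux, found by their exact symbols among the 30406 genes that all 6 libraries share. They comprise 17 enzymes of synthesis, 3 sterol sensors (Srebf2, Insig1 and Scap), 2 proteins that release cholesterol taken up (Npc1 and Npc2), the esterifying enzyme Soat1, the receptor ligase Mylip, 2 LXR receptors (Nr1h2 and Nr1h3) and 2 exporters (Abca1 and Abcg1). All 28 were present. The series asks how the loss of Mtdh in the host, in marrow-derived cells or in both alters the immune cells of a mammary tumour. Live CD45-positive cells were sorted from tumours of female mice that had been injected with Py8119, a mouse mammary tumour cell line, and were read with a droplet 3' assay that counts captured transcripts as unique molecular identifiers (UMIs).

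The groups were intact Mtdh knockout (KO) mice, intact wild-type (WT) mice, and irradiated hosts of either genotype that had received KO or WT marrow: KO marrow in KO host, KO marrow in WT host, WT marrow in KO host and WT marrow in WT host. Marrow was given 8 weeks before the tumour cells, and every tumour grew for 4 weeks. All groups carried the same injected line, so Mtdh differed in the mouse and not in the tumour cells. Each group holds 1 library. Neither the age of the mice nor the number of mice behind a library is given, so the p-values measure the spread between libraries only. An irradiated host can keep some of its own immune cells.

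Cells make cholesterol from acetyl-CoA through mevalonate, isoprenoid units, squalene and lanosterol. When membrane sterol is low, Scap carries the transcription factor encoded by Srebf2 to the Golgi, where it is released to switch on the synthesis genes, and Insig1 holds Scap back when sterol is plentiful. When sterol is high, oxysterols activate the LXR receptors, which raise Abca1 and Abcg1 and, through Mylip, the degradation of lipoprotein receptors. Macrophages take up much cholesterol from dead cells and lipoproteins. They store it as esters made by Soat1 or hand it to lipoproteins through Abca1 and Abcg1.

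Most promoters of the synthesis genes, and 5 of the 9 other members searched, hold a short run of letters that the Abca1 promoter lacks. For comparison 3 promoters are shown. The RefSeq promoter table (GRCm38.p6) held an entry for 23 members, 14 of them synthesis genes; the 250 bases before the start were searched on both strands for CCAAT, the core of the box that NF-Y binds, for CACNCCAC, a core of the sterol regulatory element, and for AGGTCA repeated after NNNN, an LXR element. CCAAT stood in 13 of the 14 synthesis promoters, against 40.2% of the 11253 genes tested in macrophages that have an entry. The exception was Acat2, which makes acetoacetyl-CoA. CCAAT also stood in 5 of the 9 other members with an entry: Srebf2, Insig1, Npc2, Soat1 and Mylip. The sterol element core stood in 2 of the 14, Acat2 and Hmgcs1, and in Insig1, against 6.51% of those genes. The LXR element stood in 0 of the 23, against 0.0089% of those genes. A match to these exact letters was so rare that its absence does not show that a member lacks an LXR element. Hmgcs1, which makes HMG-CoA, held 3 CCAAT boxes and the sterol element core. Ebp, a sterol isomerase, held 2 CCAAT boxes and Abca1 none. A match is a description of letters and not of binding. The windows run 5′ to 3′ on the gene's strand with matches in capitals, and lie at chr13:119690101-119690350 (plus strand), chrX:8193513-8193762 (minus strand) and chr4:53159896-53160145 (minus strand).
Hmgcs1: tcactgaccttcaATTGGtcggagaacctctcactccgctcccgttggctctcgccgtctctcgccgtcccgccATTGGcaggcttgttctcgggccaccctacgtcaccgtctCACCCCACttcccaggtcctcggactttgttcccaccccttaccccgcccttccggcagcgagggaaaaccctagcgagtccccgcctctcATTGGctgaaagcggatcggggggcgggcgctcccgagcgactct
Ebp: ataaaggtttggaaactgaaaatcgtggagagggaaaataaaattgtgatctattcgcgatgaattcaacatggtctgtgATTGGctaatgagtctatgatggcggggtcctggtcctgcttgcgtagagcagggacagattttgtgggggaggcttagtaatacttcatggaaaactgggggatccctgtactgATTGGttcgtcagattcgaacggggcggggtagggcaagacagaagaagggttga
Abca1: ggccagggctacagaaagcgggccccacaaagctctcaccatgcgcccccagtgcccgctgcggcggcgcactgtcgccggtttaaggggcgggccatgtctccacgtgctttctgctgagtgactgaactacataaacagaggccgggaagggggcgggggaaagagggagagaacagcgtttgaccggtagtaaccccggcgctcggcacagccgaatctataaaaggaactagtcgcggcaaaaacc

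The libraries held 85616443 to 142779550 UMIs, and 40414 of 41267 barcodes were kept as cells. Marker genes placed 33289 cells in 11 classes, and no member was used as a marker. Macrophages (26162 cells), monocytes (1488), neutrophils (1188) and CD8 T cells (2058) had at least 30 cells in every library and were tested for genotype. Levels are given as CPM, a gene's UMIs scaled to a common total for the class and library. The defining markers stood where the names put them: the 5 T cell markers summed to 4460 to 6373 CPM in CD8 T cells and to 3.30 to 32.3 in macrophages. The gates set these levels, so they check only that the classes are apart. Neutrophils were shallow, with 1953 to 3200 UMIs per cell at the median, and 14 of the 28 members passed the filter on low counts there. All 28 passed in macrophages and monocytes, and 25 in CD8 T cells, where Mvd, Lss and Nr1h3 did not. Any 2 libraries shared 8 to 24 cell barcodes. Mtdh followed the marrow label: in macrophages it stood at 14.2 to 20.6 CPM in the 3 libraries with KO marrow and at 98.6 to 115.6 in the 3 with WT marrow.

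The cholesterol genes were unevenly spread over the immune classes. Monocytes held the highest level of 9 of the 22 members with a mean of at least 10 CPM over 9 classes, macrophages of 4 and mature dendritic cells of 3. Neutrophils held the lowest level of 8, and CD8 T and natural killer (NK) cells of 4 each. These 9 classes are those with at least 10 cells in every library, a range chosen after the cell numbers were seen. Levels below are plain CPM of summed UMIs, and in each comparison across classes the test was an edgeR quasi-likelihood fit of the class against the mean of the others with library as a block.

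**Figure D1:**
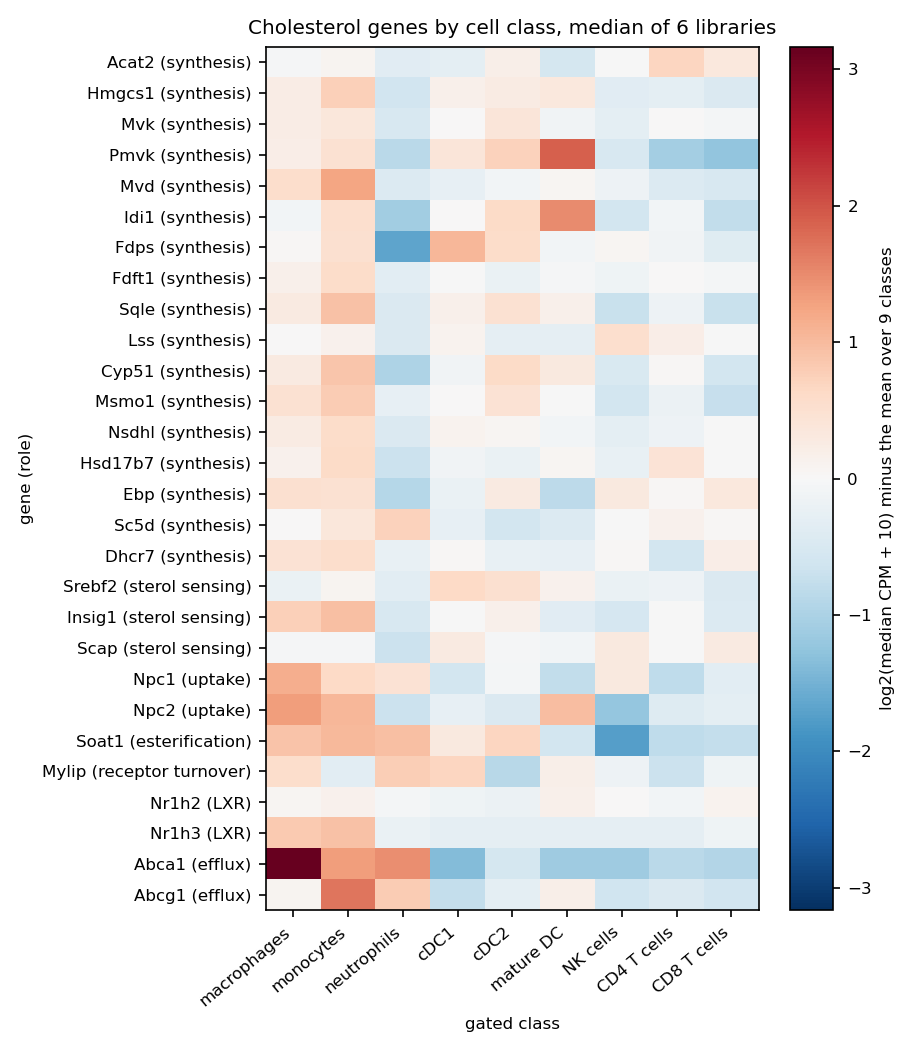
The 28 genes, with their roles, are in rows and 9 gated classes in columns; the colour gives the log2 of the median CPM over 6 libraries plus 10, minus the gene's mean over the 9 classes. Abca1 in macrophages, Abcg1 in monocytes and Pmvk and Idi1 in mature dendritic cells are the darkest red cells of their rows, and most synthesis genes are red in monocytes.

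Abca1, which hands cholesterol to lipid-poor apolipoprotein A-I, set macrophages apart. Their 6 libraries held 342 to 601 CPM with a median of 417. The next class, neutrophils, reached 288 at most with a median of 121, so the 2 classes did not overlap in any library. Abca1 was the only one of the 22 members whose highest class stood clear of the second. In the fit of 9 classes its log2 difference in macrophages was 4.19 (SE 0.14, adjusted p = 2.1e-30). In conventional type 1 dendritic cells (cDC1) it was at 1.64 to 9.85 CPM, with 24 UMIs in all.

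Free RNA from burst macrophages can reach every droplet. The C1q genes, which lymphocytes do not make, stood in CD8 T cells at 2.82% to 3.95% of their macrophage level. The gates took lymphocytes only below 20 C1q UMIs per 10000 and macrophages from 32 up, so this share can be too low. That share of the macrophage Abca1 level is 9.74 to 22.9 CPM, and CD8 T cells held 4.11 to 21.2 CPM. Library by library, CD8 T cells lay above the level free RNA would bring in 4 of 6, for example 19.8 against 13.7 CPM with WT marrow in WT host, and below it in 2, for example 4.11 against 22.9 in intact WT. In none of the 6 did the exact 95% Poisson interval of the UMIs, which covers counting error only, lie wholly above that level, so Abca1 was not told from background there. NK cells, at 8.80 to 15.4 CPM, lay above it in 3 of 6 and with the whole interval in 0. Npc2, a lysosomal protein that lifts cholesterol off the inner membranes and passes it to Npc1, stood well above that background in CD8 T cells, at 274 to 453 CPM against 33.7 to 49.9, with the whole interval above it in 6 of 6 libraries.

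Abcg1, which exports cholesterol to mature lipoprotein particles, peaked in another class than Abca1. Monocytes held 66.3 to 246 CPM with a median of 140, and the highest neutrophil library held 114 with a median of 72.3. These ranges overlapped, because both libraries with KO marrow in irradiated hosts held only 66.3 and 66.9 CPM in monocytes. Against the other 8 classes Abcg1 was higher in monocytes by a log2 difference of 2.14 (SE 0.17, edgeR adjusted p = 1.8e-15). cDC1 had the lowest median, 17.7 CPM.

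Mature dendritic cells, the state in which these cells carry Ccr7 and migrate, held the highest level of 2 early enzymes. Pmvk, which phosphorylates mevalonate phosphate, stood at 98.4 to 265 CPM in them with a median of 207, against a median of 86.8 in conventional type 2 dendritic cells (cDC2) and 14.8 in CD8 T cells. Idi1, which interconverts the 2 isoprenoid units, stood at 77.5 to 183 CPM with a median of 111. The range of cDC2 reached 144 CPM for Idi1 and 154 for Pmvk, so both overlapped with the second class. The log2 differences from the other 8 classes were 2.52 (SE 0.13) for Pmvk and 2.25 (SE 0.20) for Idi1, with edgeR adjusted p-values of 2.3e-23 and 7.1e-14. In all, 7 of the 23 members tested passed higher and 4 lower, where 26.3% of the 8878 genes tested passed higher and 23% lower. Npc2 (1.24, SE 0.12), Hmgcs1 (0.69, SE 0.21) and Cyp51 (0.53, SE 0.20) were among the higher ones, and Abca1 (-1.37, SE 0.30), Ebp (-0.92, SE 0.13) and Npc1 (-0.87, SE 0.22) among the lower. Without TMM scaling the share of called genes that were higher moved from 53.3% to 40.5%, and 4 members passed higher and 5 lower. The class is small, with 28 to 84 cells per library.

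Fdps, which joins isoprenoid units into farnesyl diphosphate, was highest in cDC1. Its 6 libraries held 57.1 to 135 CPM with a median of 87.2, and neutrophils had the lowest median at 4.81. The log2 difference of cDC1 was 1.36 (SE 0.21, edgeR adjusted p = 4.7e-07). Srebf2, the sterol-responsive transcription factor, was also highest in cDC1 at 72.4 to 110.3 CPM and lowest in CD8 T cells with a median of 37.1. Its log2 difference was 0.81 (SE 0.12). Mylip (0.89), Scap (0.77), Pmvk (0.52) and Soat1 (0.36) passed higher in cDC1 too, 6 of 23 in all against 4 lower, where 23.8% and 21% of genes did. With 16 to 62 cells per library, cDC1 were rich in cycling cells, 18.8% to 33.9% per library.

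Among the 4 larger classes the synthesis enzymes stood high in monocytes, while over all 9 classes monocytes held the top median of 6 of the 12 synthesis genes ranked. In the fit of the 4 larger classes, 15 of the 17 synthesis genes passed higher in monocytes and 0 lower, where 24.7% of the 11172 genes tested passed higher and 13.3% lower. The median log2 difference of the 17 was 1.07, against 0.08 over all genes tested. Mvd, which decarboxylates mevalonate diphosphate, stood at 15.8 to 45.2 CPM in monocytes with a median of 39.8 and at a median of 20.8 in macrophages, the second class. Hmgcs1 stood at 30.6 to 105 CPM in monocytes and at 32.7 to 53.5 in macrophages, so their ranges overlapped. The log2 differences that passed with the largest fold were Nr1h3 (2.05, SE 0.28), Mvd (1.86, SE 0.22), Abcg1 (1.70, SE 0.22), Lss (1.61, SE 0.38) and Idi1 (1.45, SE 0.24). Of these Lss rests on few UMIs, with 1 in all neutrophils, and stood at 3.70 without the library that holds it, WT marrow in KO host. Nr1h3 also rests on few UMIs in the classes compared, with 11 in all neutrophils and 15 in all CD8 T cells. Its TMM-scaled levels overlapped between monocytes (5.85 to 23.0 CPM, median 12.5) and macrophages (6.74 to 15.0, median 11.5). Mylip was the 1 member that passed lower, at -0.81 (SE 0.26, edgeR adjusted p = 0.018). Its call was lost without intact WT (-0.66, adjusted p = 0.077), KO marrow in WT host (-0.71, 0.058), WT marrow in KO host (-0.76, 0.064) or WT marrow in WT host (-0.73, 0.065).

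Macrophages shared part of this. In the same fit 9 synthesis genes passed higher and 1, Sc5d, lower, where 31.2% of genes passed higher and 20.6% lower, and the median log2 difference of the 17 was 0.48 against 0.10 for all genes. Besides Abca1 (2.72, SE 0.17), the members with the largest differences were the LXR gene Nr1h3 (1.59, SE 0.26), Npc2 (1.24, SE 0.14), the lanosterol synthase Lss (0.96, SE 0.38) and Mvd (0.92, SE 0.21). Sc5d (-0.67, SE 0.20) and Abcg1 (-0.74, SE 0.23) passed lower. The Nr1h3 value was again taken against the few UMIs of neutrophils and CD8 T cells. In macrophages too Lss rests on that single neutrophil UMI: it did not pass in DESeq2 (0.67, adjusted p = 0.098), and it stood at 3.05 without the library that holds that UMI, WT marrow in KO host. It was also lost without intact KO (0.85), KO marrow in KO host (0.75), KO marrow in WT host (0.79) or WT marrow in WT host (0.89). Npc1, the late endosomal cholesterol transporter, had its highest median in macrophages, 75.5 CPM with a range of 52.5 to 82.2, and its lowest in CD4 T cells, 12.0. Ebp was level between macrophages and monocytes, with medians of 92.3 and 91.6 CPM.

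Neutrophils went the other way for synthesis and not for export. Of the 17 synthesis genes 8 passed lower and 1, Sc5d, higher, where 30.7% of genes passed lower and 27% higher. Only 6 of the 17 passed the filter on low counts within neutrophils. The rest were tested here with the higher counts of the other classes, so a lower value was likely in advance for them. Of the 8 genes of uptake, storage, LXR and efflux, 6 passed higher and 1 lower. Sc5d, a sterol desaturase, held 16.1 to 71.0 CPM in neutrophils with a median of 36.3, its highest class, and a log2 difference of 1.36 (SE 0.25). Mylip was highest there as well, at a median of 43.2 CPM, with a difference of 1.5 (SE 0.29). Abcg1 (1.20), the esterifying Soat1 (1.01) and Abca1 (0.89) followed. Lss fell by 3.52 (SE 0.84) on 1 UMI in all neutrophils, Scap by 1.37, the final reductase Dhcr7 by 1.31, Idi1 by 1.30 and Ebp by 1.25. Scap had 11 UMIs in all neutrophils, Dhcr7 10 and Idi1 34, against 100 for Ebp. Without TMM scaling the share of called genes that were higher in neutrophils moved from 46.7% to 30.8%, and 5 members passed higher and 17 lower in place of 7 and 11.

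CD8 T cells were low in most of these genes. Of the 28 members 16 passed lower and 1, Scap at 0.84 (SE 0.22), higher, where 33.4% of genes passed lower and 35.8% higher. The largest differences were Abca1 (-3.87, SE 0.25), Nr1h3 (-3.31, SE 0.47), Abcg1 (-2.16, SE 0.28), Soat1 (-2.08, SE 0.14) and Mvd (-1.91, SE 0.31). Nr1h3, with 15 UMIs, and Mvd, with 73, did not pass the filter on low counts within CD8 T cells. They were tested here with the higher counts of other classes, so a lower value was likely in advance. The 95% interval of Nr1h3 lay wholly above the free RNA level in 0 of 6 CD8 T cell libraries. The synthesis genes had a median difference of -0.57 against 0.07 for all genes, and 7 of 17 passed lower. Among the remaining lymphoid classes of the wider fit, NK cells had the lowest Soat1, 5.13 to 35.2 CPM against 146 to 195 in monocytes, and the lowest Npc2, Sqle and Insig1. NK cells passed lower for 12 of the 23 members tested and higher for Npc1 alone (0.62), where 27.9% of genes passed lower and 25% higher. CD4 T cells passed lower for 7 and higher for Acat2 alone (1.21, SE 0.37, on 33 UMIs), where 20.6% and 19.7% of genes did; without TMM scaling 5 members passed in CD4 T cells in place of 8, and the share of called genes that were higher moved from 48.8% to 67.7%.

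The other members with at least 10 CPM filled in this order. Cyp51 (median 84.6 CPM), Msmo1 (65.4), Sqle (44.4), Insig1 (45.3), Fdft1 (19.5) and Soat1 (175) were highest in monocytes. Mvk was highest in cDC2 (15.9), Scap in NK cells (15.2) and Nr1h2 in mature dendritic cells (45.4). For Nr1h2 the classes hardly differed, since its lowest median, in cDC2, was 33.3 CPM. In each of these the range of the highest class overlapped with that of the second.

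Cycling macrophages differed from non-cycling ones in both arms of the set. A cell was called cycling when at least 3 of 12 cycling genes, none of them a member, had a UMI, which held for 3546 macrophages in the 6 libraries. Of these, 1465 had 3 or 4 such genes and so lay near the threshold. Of the 17 synthesis genes 8 passed higher and 0 lower, and of the 8 genes of uptake, storage, LXR and efflux 0 passed higher and 8 lower. In the same edgeR fit 19.3% of the 14895 genes tested passed higher and 23.1% lower. The median log2 fold change was 0.17 for the synthesis genes, -0.56 for those 8 and -0.03 for all genes. Lists outside the cholesterol genes moved in the same fit: 11 of 12 interferon genes (median -0.59) and 9 of 9 dissociation stress genes (median -0.23) passed lower, and their part in these values was not tested.

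**Figure D2:**
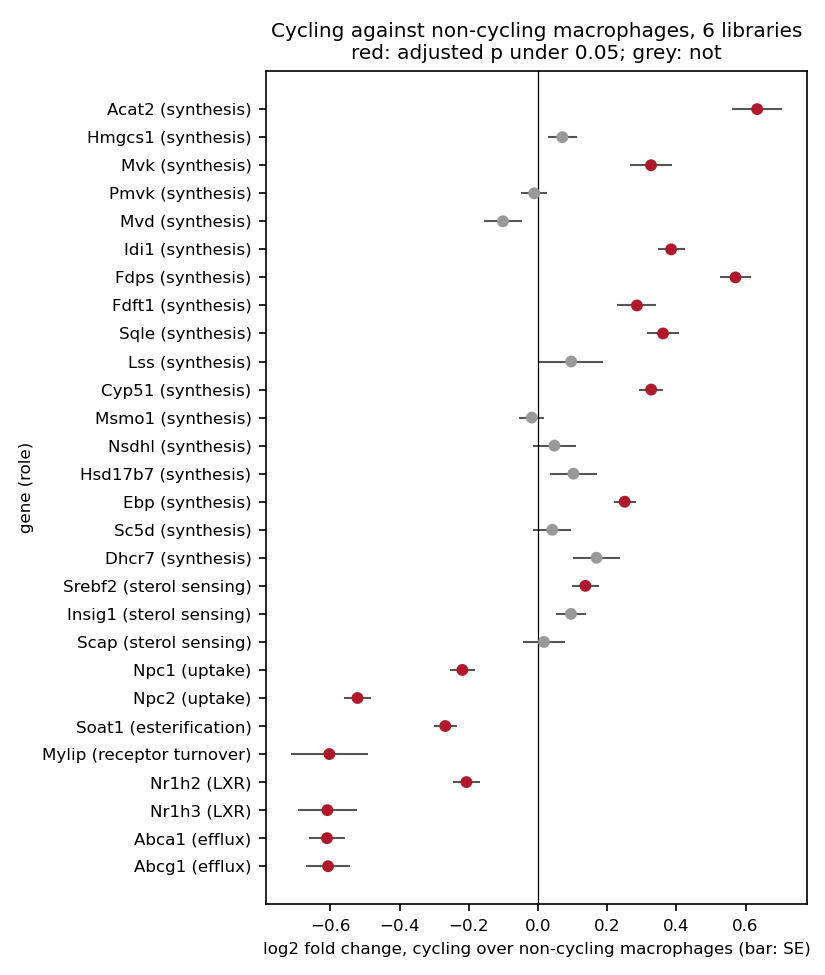
Each row is a gene with its role, and each point its log2 fold change in cycling over non-cycling macrophages across 6 libraries, with the SE as a bar; red points passed an adjusted p of 0.05. The synthesis genes that passed lie right of 0, up to 0.63 for Acat2, and all 8 genes from Npc1 down lie left of it, to -0.61 for Abca1, Nr1h3 and Abcg1.

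Fdps in cycling macrophages stood at 102.8, 80.6, 53.4, 58.7, 48.3 and 55.1 CPM, with the groups in the order in which they were introduced, from intact KO to WT marrow in WT host. The non-cycling values in that order were 64.4, 50.3, 31.7, 29.5, 31.2 and 38.8 CPM. Cycling cells were higher in all 6 libraries, while the ranges of the 2 states overlapped because the intact libraries were higher in both. Its log2 fold change was 0.57 (SE 0.05, adjusted p = 7.9e-09). Acat2 rose by 0.63 (SE 0.07), from a median of 6.15 to 11.1 CPM, though it has a near-identical neighbour, Acat3, and its reads may be split. Idi1 (0.39), the squalene epoxidase Sqle (0.36), the lanosterol demethylase Cyp51 (0.33) and the mevalonate kinase Mvk (0.33) followed. Fdft1 (0.29), Ebp (0.25) and Srebf2 (0.14) passed as well. Hmgcs1 (0.07), Pmvk (-0.01), Mvd (-0.10) and Msmo1 (-0.02) did not pass.

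Abca1 moved the other way in every library. In the same order of groups, cycling macrophages held 419.8, 491, 244, 279, 321 and 278 CPM, and non-cycling ones 542.9, 645, 364, 461, 403 and 406. The cycling value was the lower one 6 times of 6. The log2 fold change was -0.61 (SE 0.05, adjusted p = 9.0e-07). Nr1h3 (-0.61, SE 0.08), Abcg1 (-0.61, SE 0.06), Mylip (-0.60, SE 0.11), Npc2 (-0.52, SE 0.04) and Soat1 (-0.27, SE 0.03) were also lower in 6 of 6 libraries. Npc1 (-0.22) and Nr1h2 (-0.21) were lower in 5 of 6.

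Cycling cells held more RNA, with 21080 to 32483 UMIs at the median against 13647 to 19100. After each cell was thinned to 3000 UMIs, 1595 macrophages were still called cycling, 777 macrophages were too shallow to enter, and 13 members passed in place of 17. Mvk then stood at -0.01, Mvd passed lower, and Idi1 (0.29), Fdft1 (0.24), Srebf2 (0.14) and Nr1h2 (-0.07) no longer passed, while Abca1 (-1.04) and Abcg1 (-1.03) fell further. Without TMM scaling the median of all genes moved from -0.034 to 0.088, the share of called genes that were higher from 45.6% to 73.9%, and the members passing from 9 higher and 8 lower to 17 higher and 7 lower.

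The balance of synthesis against efflux placed CD8 T cells apart from the myeloid classes, whose ranges overlapped one another. The measure is the mean log2(CPM + 10) of the 17 synthesis genes minus that of Abca1 and Abcg1, a description with no test. In macrophages it was -2.21, -2.5, -2.0, -2.04, -2.18 and -1.80, from intact KO to WT marrow in WT host in the order given at the start. In monocytes it ran from -2.21 to -1.44, in neutrophils from -2.87 to -2.13 and in CD8 T cells from -0.51 to 0.52. The CD8 T cell library with KO marrow in KO host, at 0.52, was the only positive value, and the other 5 lay between -0.51 and -0.17. In CD8 T cells the efflux side is near the level of free macrophage RNA for Abca1, as given above.

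**Figure D3:**
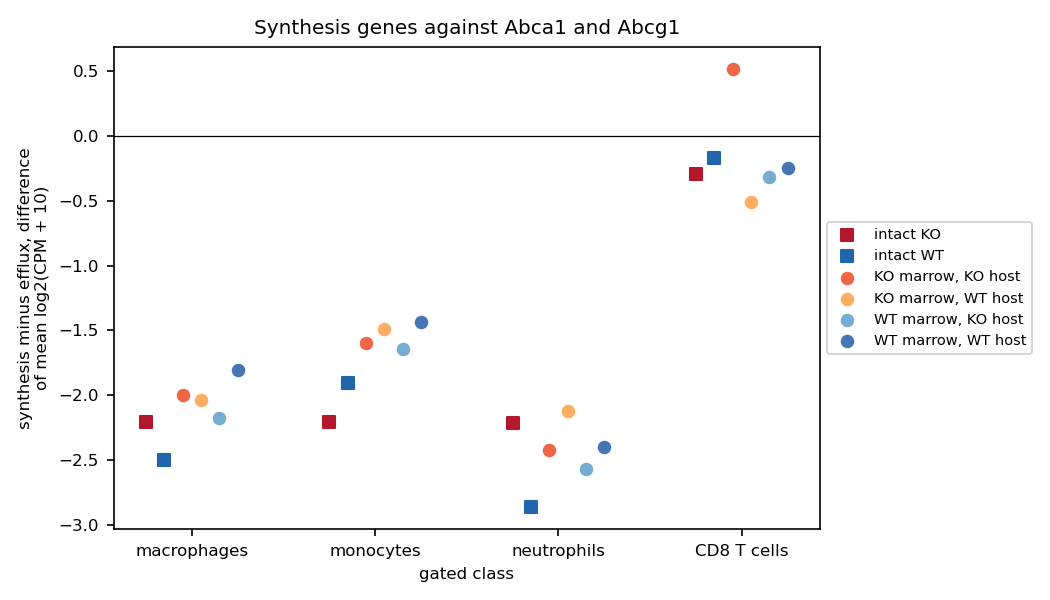
Each point is 1 library in 1 gated class; the vertical axis is the mean log2(CPM + 10) of 17 synthesis genes minus that of Abca1 and Abcg1, squares are intact mice and circles chimeras. The myeloid classes lie between -2.87 and -1.44, CD8 T cells near 0, and KO and WT libraries are mixed within the myeloid classes.

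By their labels the chimera pairs differed only in the genotype tested, but depth and cell numbers differed too. With KO hosts, macrophages had 14234 UMIs at the median with KO marrow and 19379 with WT marrow, and CD8 T cells numbered 1234 and 82. The intact mice differ in host and marrow at once and served as a pair for both. That pair cannot separate host from marrow, and it makes the host and marrow values overlap. The mean pair difference of the measure for host genotype was -0.02 (SD 0.34, n = 3 pairs) in macrophages, -0.21 (SD 0.09) in monocytes, 0.06 (SD 0.51) in neutrophils and 0.28 (SD 0.65) in CD8 T cells. For marrow genotype it was 0.08 (SD 0.28), -0.10 (SD 0.18), 0.36 (SD 0.26) and 0.15 (SD 0.60) in the same order. Only the monocyte host pairs (0 of 3 higher) and the neutrophil marrow pairs (3 of 3 higher) had 1 sign throughout. The neutrophil values rest on few UMIs, since 6 of the 17 synthesis genes passed the filter on low counts there. Their largest marrow pair, 0.65, is the intact one, with 55 neutrophils in intact KO. The cycling list summed to 764 CPM in those cells against 31.4 to 158 in the other neutrophil libraries, and its part was not tested. In uptake against efflux, Npc1 and Npc2 exceeded Abca1 and Abcg1 in macrophages by 0.67 and 0.71 in the intact libraries and by 1.25 to 1.41 in the 4 chimeras. That difference coincides with the software version and with irradiation, and these cannot be told apart.

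Host genotype moved none of the members past the test. In macrophages 0 of 28 passed by edgeR or by DESeq2, where 0% of the 15054 genes tested passed by edgeR and 149 genes by DESeq2; 1 member, Abcg1, had an unadjusted p under 0.05. Its macrophage levels were 45.5, 41.8 and 42.1 CPM in the libraries with a KO host (intact KO, KO marrow in KO host, WT marrow in KO host) and 35.5, 31.5 and 30.1 in those with a WT host (intact WT, KO marrow in WT host, WT marrow in WT host). All 3 KO hosts lay above all 3 WT hosts, which held for 4.23% of all genes in this direction. Its log2 fold change was 0.42 (SE 0.10, edgeR adjusted p = 0.97). The members named next for having 1 sign in all 3 pairs were Scap (0.27, SE 0.12), Nr1h3 (0.36, SE 0.18) and Npc2 (0.20, SE 0.11) above 0 and Abca1 (-0.16, SE 0.11) below it, each with an adjusted p of 1. These values hang on single libraries: without KO marrow in WT host Npc2 stood at 0.05, Abca1 at -0.01 and Nr1h3 at 0.69, and without WT marrow in KO host at 0.34, -0.32 and 0.03. In all, 6 members were higher in all 3 pairs and 1 lower, where 13.7% and 13.9% of genes were. In monocytes 0 of 28 passed, where 0% of 10368 genes did, and 3 members had an unadjusted p under 0.05: Nr1h3 (1.12, SE 0.26), Abcg1 (0.46, SE 0.18) and Npc2 (0.34, SE 0.14). In neutrophils 0 of the 14 tested passed, where 0.0368% of 5433 genes did, and 3 had an unadjusted p under 0.05.

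In CD8 T cells 0 of the 25 members tested passed for host genotype by edgeR or DESeq2, where 1.68% of the 8734 genes tested passed by edgeR, and 3 had an unadjusted p under 0.05. Mylip stood at 14.1, 6.78 and 10.8 CPM with KO hosts and at 21.7, 25.4 and 22.9 with WT hosts, in the order of libraries above. The groups did not overlap, which held for 5.2% of genes in this direction. The log2 fold change was -1.38 (SE 0.37, adjusted p = 0.087). Mylip passed without WT marrow in KO host (-1.70, edgeR adjusted p = 0.013). It stood at -1.62 without intact WT and at -1.63 without intact KO, in effect the same contrast, and only the first was called. The chimeras alone, again in effect that contrast, gave 0 members past the test. Pmvk (1.06, SE 0.37, adjusted p = 0.23) and Npc2 (-0.48, SE 0.17, adjusted p = 0.23) also separated by host, with 6.3% of genes apart upward, and both passed without WT marrow in KO host (1.62 and -0.78). All 3 shrank without KO marrow in WT host, Mylip to -0.78, Pmvk to 0.24 and Npc2 to -0.16, and without KO marrow in KO host Mylip stood at -0.93, Pmvk at 0.67 and Npc2 at -0.38, with no call. Fdft1 (0.22), Sc5d (0.07) and Acat2 (-0.70) had 1 sign in all pairs and did not pass. Such a single sign held for 18.3% of genes upward and 17.3% downward. The 12 genes of the cycling list were all fitted above 0 in this comparison, with a median of 0.65, and their part in these values was not tested. These counts are low: the intact WT library has 72 CD8 T cells with 11 Mylip UMIs.

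Marrow genotype gave no member either. In macrophages 0 of 28 passed, where 0% of genes did, and 0 had an unadjusted p under 0.05; DESeq2 called 0 members and 56 genes. The members with 1 sign in all pairs and the largest smallest pair were Scap (0.11), Nr1h3 (0.30), Dhcr7 (0.09) and Npc2 (0.18) above 0 and Mylip (-0.33, SE 0.14, adjusted p = 0.86) below it, where 15.1% and 15.6% of genes had 1 sign. Mylip alone did not overlap between the groups, against 4.06% of genes in that direction. Leaving out 1 library moved Mylip between -0.61 and -0.07, Npc2 between 0.03 and 0.32 and Nr1h3 between -0.02 and 0.64. Among CD8 T cells 0 of 25 passed, where 0.0458% of genes did, and 1 had an unadjusted p under 0.05, Sqle (1.28, SE 0.55). Sqle had 0 UMIs in CD8 T cells of intact WT. Hsd17b7 (0.66), Sc5d (0.25) and Hmgcs1 (0.54) were higher and Nsdhl (-0.60) lower in all 3 pairs without passing. Such a single sign held for 12.5% of genes upward and 12.5% downward. In neutrophils 0 of 14 passed, where 0.0184% of genes did, and 1 had an unadjusted p under 0.05. DESeq2 called 0 members in CD8 T cells and neutrophils.

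By fitted values the synthesis genes leaned downward with KO marrow in monocytes and upward in macrophages and CD8 T cells. Fitted values lay above 0 for 14 of 17 in macrophages (median 0.10), where 7361 of 15054 genes did. In CD8 T cells they did for 12 of the 15 tested (median 0.37), where 4397 of 8734 genes did. Single pairs were mixed: 2 of the 17 and 4 of the 15 were higher in all 3 pairs, where 15.1% and 12.5% of genes were. With WT hosts the synthesis mean was lower with KO marrow in macrophages (5.05 against 5.16) and CD8 T cells (4.53 against 4.58). In monocytes none of the 28 members passed by edgeR, where 0.251% of genes did. Of the 28, 6 had an unadjusted edgeR p under 0.05, as had 1354 of all 10368 genes tested. Of the 17 synthesis genes 15 had a fitted value below 0, as had 5113 of all 10368 genes tested. The median of the 17 was -0.44, against 0.01 for all genes tested. Hmgcs1 in the 3 KO-marrow libraries stood at 64.1, 43.2 and 31.6 CPM, intact KO first and then the chimeras with KO and WT hosts, and in the 3 WT-marrow libraries at 92.6, 64.4 and 90.9. The groups were just apart, 64.1 against 64.4, and the log2 fold change was -0.85 (SE 0.25, adjusted p = 0.24). Groups apart in this direction held for 6.39% of genes and for 4 members, Hmgcs1, Fdft1, Lss and Npc1. Npc2 went the other way, at 982, 1633 and 1117 CPM with KO marrow against 533, 959 and 858 with WT marrow, libraries in the same order. Abcg1 in the KO-marrow libraries stood at 146.2, 71.6 and 69.1 CPM, against 216.5, 206.7 and 132.3 in the others. The groups overlapped, since intact KO lay above WT marrow in WT host, yet every pair was lower with KO marrow, as for 18.9% of genes. The log2 fold change of Abcg1 was -1.17 (SE 0.18, adjusted p = 0.072), and DESeq2 called it, as did edgeR without either intact library. The interferon list, 12 genes, was fitted above 0 for 12 of 12 in the same comparison with a median of 1.49, and the cycling list for 11 of 12 with a median of 0.75. The KO-marrow monocytes were also shallower, with 6411 to 9837 UMIs per cell at the median against 13041 to 19009. Their 5 monocyte markers summed to 5769.7 to 6489 CPM against 10299.8 to 15633, their 5 T cell markers to 13.5 to 33.5 against 2.63 to 7.59 and their 5 mature dendritic cell markers to 15.0 to 20.5 against 6.34 to 12.7, none of these overlapping. The part of all these in the members' values was not tested. The KO marrow in WT host library had 82 monocytes and 27 Hmgcs1 UMIs.

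Members did pass where host and marrow were both KO. This compares 2 libraries, intact KO and KO marrow in KO host, with the other 4, with a term for transplantation. The contrast was chosen because an earlier analysis of these data had found the 2 libraries apart, a choice for which the p-values are not corrected. In macrophages Pmvk, Npc2 and Nr1h2 passed higher and Npc1 lower, 4 of 28, where 8.98% of genes passed higher and 7.25% lower (16.2% in either direction). In monocytes Npc2 and Mylip passed higher and Fdft1 lower, 3 of 28, where 3.99% and 0.675% did (4.67% in either direction). In CD8 T cells Pmvk, Idi1 and Cyp51 passed higher and Npc2 lower, 4 of 25, where 1.45% and 2.46% did (3.92% in either direction). Without TMM scaling the share of called genes that were higher moved from 55.3% to 37.4% in macrophages, where Mylip also passed lower, and from 37.1% to 47.5% in CD8 T cells. In neutrophils 0 of 14 passed by edgeR or DESeq2, where 0.663% of genes passed in either direction, and 2 had an unadjusted p under 0.05.

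**Figure D4:**
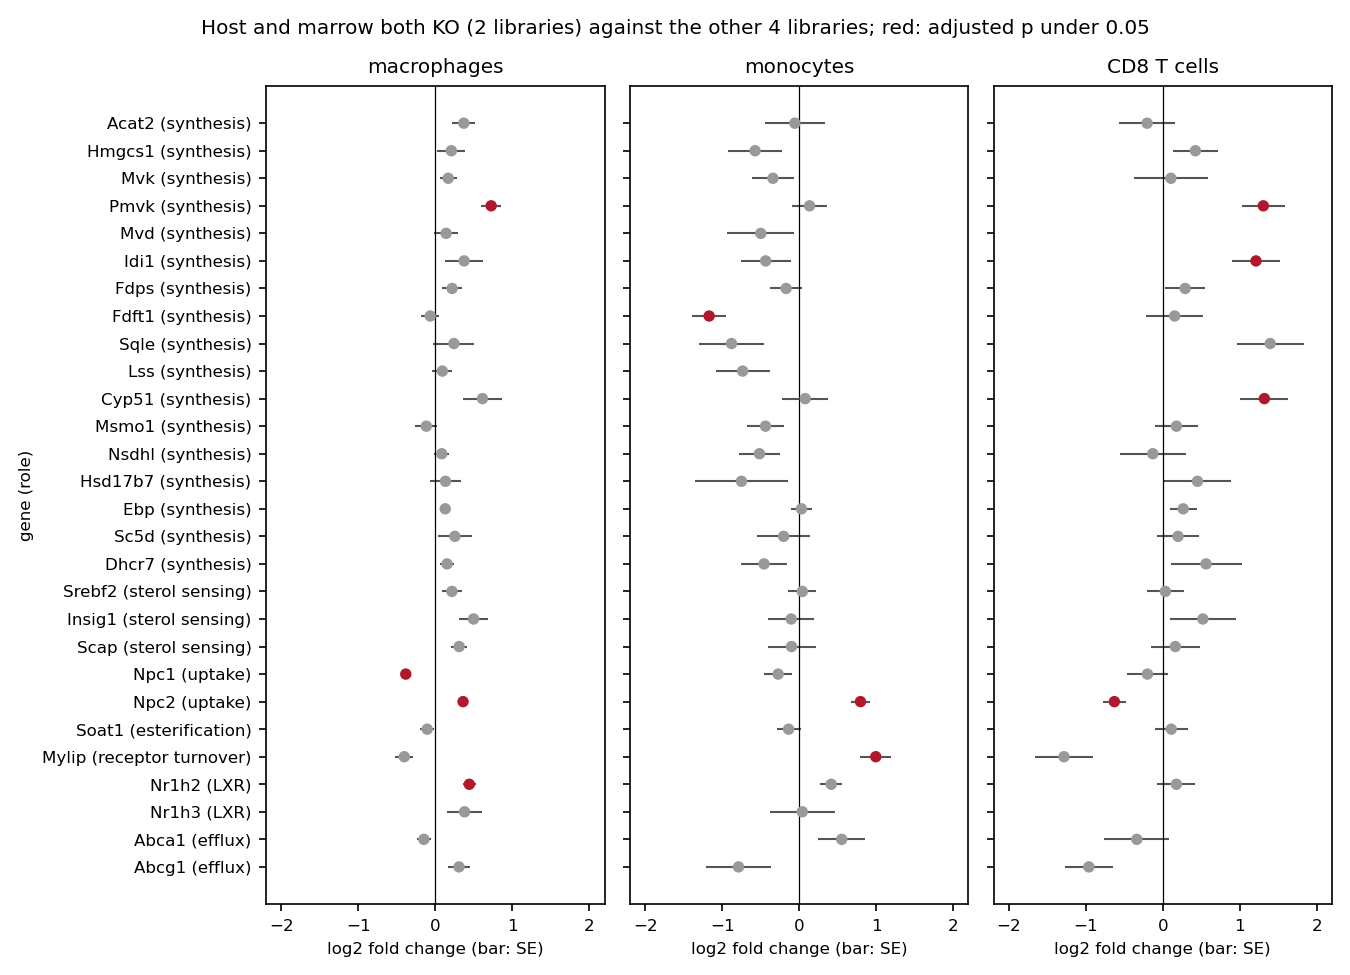
Rows are the 28 genes with their roles and panels are macrophages, monocytes and CD8 T cells; points are log2 fold changes of the 2 libraries with host and marrow both KO over the other 4, bars are SEs, and red points passed an adjusted p of 0.05. Npc2 is red right of 0 in macrophages (0.36) and monocytes (0.80) and left of 0 in CD8 T cells (-0.63), and Pmvk is red in macrophages (0.73) and CD8 T cells (1.31).

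Npc2 passed in 3 classes and not with 1 sign. Its macrophage levels were 1155 (intact KO) and 1613 CPM (KO marrow in KO host) where both were KO. The other 4 libraries, always listed here as intact WT, the KO-marrow chimera with a WT host, the WT-marrow chimera with a KO host and the one with WT for both, held 892, 1271, 1282 and 1238. The 2 groups overlap as a whole, while each both-KO library lay above every other library of its kind, intact or chimera. The log2 fold change was 0.36 (SE 0.07, edgeR adjusted p = 0.019). Both-KO monocytes held 982 and 1633 CPM, and the others, in the same order, 533, 1117, 959 and 858. The log2 fold change there was 0.80 (SE 0.13, adjusted p = 0.015). Both-KO CD8 T cells held 271 and 276 CPM, below all the others at 422, 473, 379.6 and 421 (as were 7.08% of genes), and their log2 fold change was -0.63 (SE 0.15, adjusted p = 0.034). Macrophage markers in CD8 T cells were lowest in the same 2 libraries, at 384 and 482 CPM against 643, 686, 710 and 549.8. Free RNA would bring 33.7 and 42.6 CPM of Npc2 to these 2 libraries and 38.2, 48.0, 49.9 and 42.7 to the others.

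Pmvk was higher in both-KO macrophages, at 87.8 and 85.2 CPM against 48.5, 55.8, 46.4 and 62.2. The groups did not overlap, which held for 11.6% of genes in this direction, and the log2 fold change was 0.73 (SE 0.13, adjusted p = 0.017). The CD8 T cell values were 24.8 and 33.2 CPM against 13.8, 10.4, 15.7 and 11.5, again without overlap (6.16% of genes), and the fold change was 1.31 (SE 0.28, adjusted p = 0.019). Nr1h2, the LXR gene active in most cells, was at 37.5 and 55.3 CPM in macrophages against 24.8, 43.1, 42.0 and 46.1 (0.44, SE 0.09, adjusted p = 0.023). Npc1 was lower in both-KO macrophages, at 50.7 and 61.6 CPM against 62.5, 84.9, 83.1 and 82.9, so the groups lay just apart, 61.6 against 62.5, and 13.8% of genes were apart in this direction. Its log2 fold change was -0.38 (SE 0.07, adjusted p = 0.017).

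In monocytes Mylip, which marks lipoprotein receptors for degradation, stood at 23.4 and 27.6 CPM against 10.6, 12.9, 15.8 and 15.0, and the fold change on the log2 scale was 1.0 (SE 0.20, adjusted p = 0.031). Both values lay above all 4 others, which held for 8.21% of genes. Fdft1, the squalene synthase, stood at 17.3 and 8.95 CPM against 35.5, 19.9, 20.3 and 25.4, below all of them (-1.17, SE 0.22, adjusted p = 0.025), as held for 7.73% of genes. The number of UMIs behind these is small, with 11 for Mylip and 17 for Fdft1 in the smallest library.

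Cyp51 in CD8 T cells stood at 29.6 and 49.7 CPM against 9.87, 24.1, 8.44 and 27.1 (1.32 on the log2 scale, SE 0.31, adjusted p = 0.037). Idi1 stood at 13.4 and 34.6 CPM against 5.92, 16.3, 8.44 and 18.8 (1.21, SE 0.31, adjusted p = 0.044). Cyp51 did not overlap between the groups and Idi1 did, with intact KO below 2 of the chimeras. KO marrow in KO host had 1234 of the 2058 CD8 T cells. DESeq2 called 1 of the 4 members, Npc2. Among non-cycling CD8 T cells 1 passed, Pmvk, and Idi1 stood at 0.86 (adjusted p = 0.32). The cycling list was fitted above 0 for 12 of 12 genes in this comparison with a median of 0.31, and its part in these values was not tested.

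**Figure D5:**
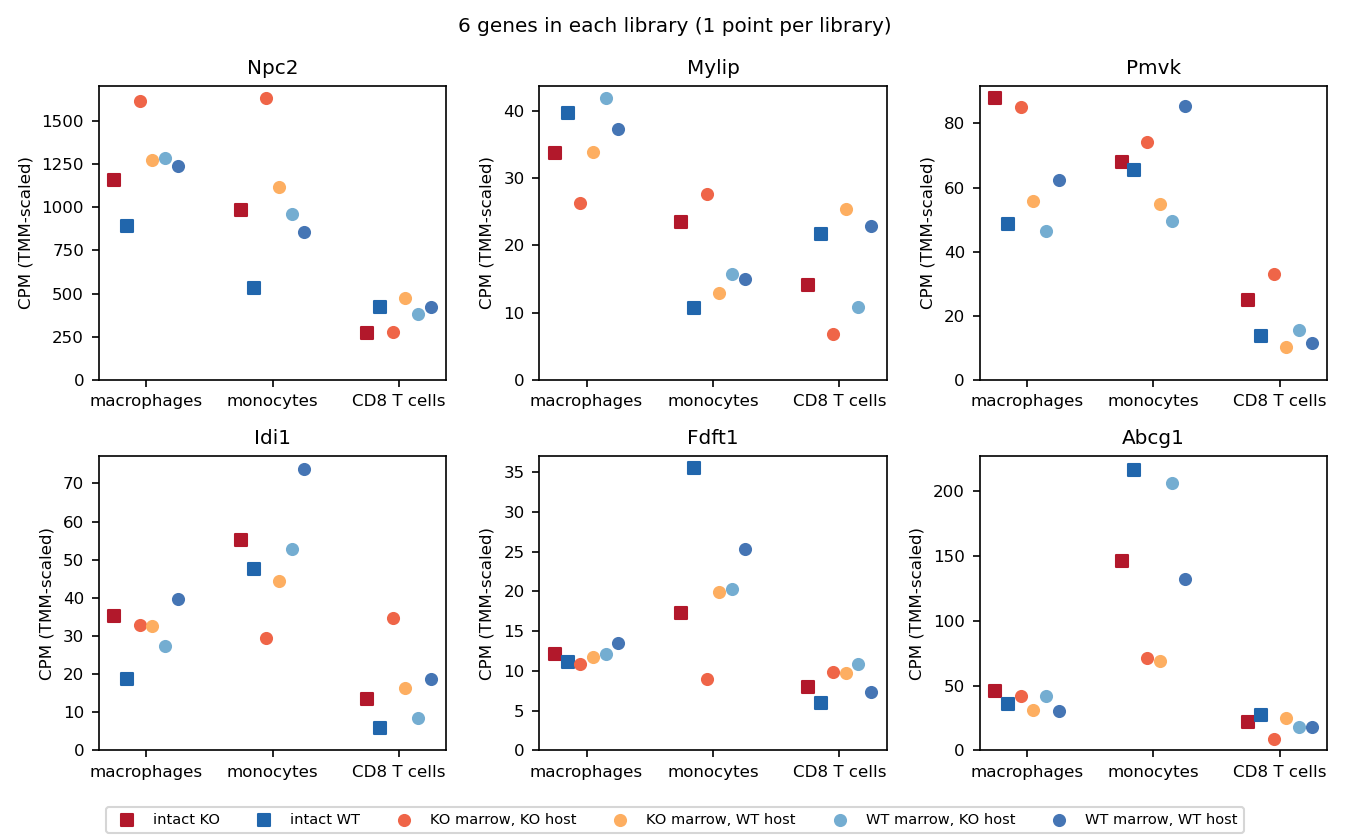
Panels show Npc2, Mylip, Pmvk, Idi1, Fdft1 and Abcg1; each point is the TMM-scaled CPM of 1 library in macrophages, monocytes or CD8 T cells, with squares for intact mice and circles for chimeras. The 2 both-KO libraries, in the red shades, are the lowest Npc2 values in CD8 T cells (271 and 276) and the highest Mylip values in monocytes (23.4 and 27.6).

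Single libraries decided many of these calls. The fitted values kept their sign but moved in size, for Nr1h2 in macrophages from 0.33 to 0.59. Leaving out either intact library leaves the other to the transplantation term alone, so both omissions are in effect the contrast among the chimeras. They and the chimeras taken alone, given below, are not separate checks. Without intact KO or intact WT, the macrophage calls of Pmvk, Npc2 and Nr1h2 were lost. Their log2 values were 0.63 to 0.64, 0.35 and 0.33 to 0.34. Npc2 was also lost without KO marrow in KO host (log2 0.37), KO marrow in WT host (edgeR adjusted p = 0.074) or WT marrow in WT host (0.057). Nr1h2 was also lost without KO marrow in WT host (0.069) or WT marrow in KO host (0.072). Npc1 missed the threshold without KO marrow in KO host (-0.31, 0.070), KO marrow in WT host (-0.38, 0.063) or WT marrow in KO host (-0.38, 0.056). In monocytes all 3 calls were lost without intact KO, intact WT, KO marrow in KO host or WT marrow in KO host, with values of 0.73 to 0.82 for Npc2, 0.88 to 1.07 for Mylip and -1.33 to -1.10 for Fdft1. All 4 CD8 T cell calls were lost without intact KO, KO marrow in KO host or KO marrow in WT host, 3 without intact WT (Pmvk kept, 0.049) and 3 without WT marrow in WT host (Cyp51 kept, 0.0499). Among the 4 chimeras alone, KO marrow in KO host against the other 3, Npc1 and in addition Msmo1 passed lower in macrophages, while Pmvk (0.63, adjusted p = 0.067), Npc2 (0.35, 0.056) and Nr1h2 (0.33, 0.053) did not pass; 0 members passed in monocytes and Pmvk alone in CD8 T cells. Over the 6 omissions the CD8 T cell values ran from 0.87 to 1.45 for Pmvk, 1.08 to 1.60 for Cyp51, 1.02 to 1.36 for Idi1 and -0.67 to -0.58 for Npc2.

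The interferon list stood apart in the same 2 libraries. In both-KO macrophages 10 of its 12 genes passed higher, with a median log2 fold change of 1.85, and its summed level was 2921 and 4017 CPM against 387 to 803 in the other 4. In monocytes 2 of 12 passed with a median of 2.29, and in CD8 T cells 1 passed higher and 3 lower of the 11 tested. Whether this moves Npc2, Pmvk or the other members was not tested. Markers of T cells summed to 14.0 and 32.3 CPM in both-KO macrophages against 3.30 to 8.20 in the others, and those of neutrophils to 38.0 and 87.3 against 46.1 to 83.4; their part in the members' values was not tested.

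The effect of genotype itself differed between classes for 10 members. These tests compare the fitted effect in 2 of macrophages, monocytes and CD8 T cells with library as a block, and were added after the data were seen. For both KO, 5 members differed between CD8 T cells and macrophages, where 5.75% of the 14852 genes tested did, 5 between monocytes and macrophages (4.28%) and 4 between CD8 T cells and monocytes (3.97%). For marrow genotype 6 differed between monocytes and macrophages (2.35%) and 2 between CD8 T cells and monocytes (0.998%). For host genotype 3 differed between CD8 T cells and macrophages (3.49%). Npc2, Sqle and Idi1 differed in all 3 both-KO comparisons, though Sqle rests on few CD8 T cell UMIs, with 0 in intact WT.

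Of 31 other sterol genes, 3 passed higher and 3 lower in both-KO macrophages, where 8.98% and 7.25% of all genes did. The scavenger receptor Cd36 stood at 31.5 and 31.6 CPM against 7.17, 14.7, 9.48 and 12.7 (1.68, SE 0.23, edgeR adjusted p = 0.0085), above all 4 others. Lbr, a sterol reductase of the nuclear envelope, rose by 0.53 (SE 0.10) and Tm7sf2, another sterol reductase, by 0.46 (SE 0.11). Gramd1b, a carrier of plasma membrane cholesterol, fell by 0.70 (SE 0.12), the LXR partner Rxra fell by 0.51 (SE 0.08) and the protease Mbtps2 fell by 0.47 (SE 0.10). In both-KO monocytes Lbr (0.97, SE 0.20) and Stard3 (0.82, SE 0.18) passed higher. The lipoprotein receptor Lrp1 in CD8 T cells passed lower with host KO, at 9.99, 13.6 and 9.64 CPM against 19.7, 38.4 and 15.6 (-1.40, SE 0.33, adjusted p = 0.048). Macrophages hold 319 to 436 CPM of Lrp1, and free RNA alone would bring 9.06 to 16.6 CPM to CD8 T cells, so most of these values were not told from background: the 95% interval lay wholly above it only in KO marrow in KO host and KO marrow in WT host. In cycling macrophages 8 of the 31 passed higher, where 19.3% of genes did, led by Lbr (1.56), Fasn (0.65) and Stard4 (0.47), and 9 lower, where 23.1% did, led by Fabp5 (-0.76), Plin2 (-0.48) and Cyp27a1 (-0.45).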

How the data were processed

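The deposited values are UMI counts per gene and cell barcode, 1 filtered matrix per library. Per the file headers the authors made them with Cell Ranger 7.0.1 for the intact mice and 6.1.1 for the chimeras, and the submitters' processing notes name mm10 and Seurat. The handling of intron reads is not stated there. Barcodes with at least 500 UMIs, 200 genes and at most 15% mitochondrial UMIs were kept. Marker genes per 10000 UMIs gated the classes; macrophages needed 32 or more UMIs of C1qa, C1qb and C1qc, and cells with markers of another lineage were left out. No doublet caller was run.

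UMIs were summed per class and library and fitted with edgeR 4.0.16 (robust quasi-likelihood, TMM, filterByExpr, two-sided, Benjamini-Hochberg over all genes tested, threshold 0.05) in R 4.3.3. Host and marrow effects came from 1 model with a transplantation term (2 residual degrees of freedom), the both-KO effect from another (3). SEs are the fold change over the root of F. The procedure was tested on simulated data. DESeq2 1.42.0, other filters, gates and scalings, thinned cells and left-out libraries were the alternatives. The 9-class fit and the tests between classes were added after the data were seen. The members and lists were chosen with earlier results of these data known.

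Named genes are the members that passed for genotype; in macrophages and CD8 T cells up to 4 per direction with the largest smallest pair ratio; the highest and lowest class of each member with a mean of 10 CPM; and up to 5 (classes), 6 (cycling) or 3 (other sterol genes) per direction by fold. Members named outside this rule were chosen after their values were seen. Precision is set by the 6 libraries, whose totals open the report.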

Additional observations from a re-analysis of the deposited data

Results flagged for a closer look

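The results below stand out because the effect of genotype on a member differed between 2 classes by a test of the difference itself (edgeR, library as a block, adjusted over all genes tested). The tests were chosen after the data were seen. Values are differences of log2 fold changes, first class minus second.

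With host and marrow both KO, CD8 T cells minus macrophages gave -0.92 for Npc2 (SE 0.16, adjusted p = 2.06e-05). The members that differed there besides were Abcg1 at -1.23 (SE 0.29), Cyp51 at 1.05 (SE 0.28), Idi1 at 1.22 (SE 0.32) and Sqle at 1.54 (SE 0.38), with adjusted p-values from 0.00272 to 0.0118. Monocytes minus macrophages gave 1.38 for Mylip (SE 0.20, adjusted p = 0.000753), 0.42 for Npc2 (SE 0.11), -1.17 for Fdft1 (SE 0.24), -0.87 for Idi1 (SE 0.19) and -1.23 for Sqle (SE 0.24). CD8 T cells minus monocytes gave -1.33 for Npc2 (SE 0.17, adjusted p = 0.00103), 2.99 for Sqle (SE 0.49), 2.05 for Idi1 (SE 0.40) and -2.10 for Mylip (SE 0.43). So the squalene epoxidase Sqle and the isomerase Idi1 stood lower in monocytes and higher in CD8 T cells than in macrophages under the same contrast. The CD8 T cell side rests on few UMIs. Sqle had 0 in intact WT and 14, 4 and 7 in the other libraries not KO for both, against 162 in KO marrow in KO host. Idi1 had 3 in intact WT, against 342 in KO marrow in KO host.

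For marrow genotype, monocytes minus macrophages gave -1.21 for Abcg1 (SE 0.17, adjusted p = 0.00164). Hmgcs1 stood at -1.04 (SE 0.20), Mvd at -1.04 (SE 0.24), Sqle at -1.07 (SE 0.25), Insig1 at -0.89 (SE 0.19) and Cyp51 at -0.75 (SE 0.18), each lower in monocytes. CD8 T cells minus monocytes gave 1.75 for Cyp51 (SE 0.38, adjusted p = 0.0475) and 1.63 for Hmgcs1 (SE 0.35, adjusted p = 0.0447).

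For host genotype, CD8 T cells minus macrophages gave -0.66 for Npc2 (SE 0.15, adjusted p = 0.00116), -1.18 for Abcg1 (SE 0.33) and -1.23 for Mylip (SE 0.34). The cycling and interferon lists differ between these libraries and classes as given in the report, and their part in these differences was not tested.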

How the results depend on the processing

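With 1 library per group the limits are few cells in some classes, 2 or 3 residual degrees of freedom, and a software version that coincides with transplantation. Of the single-gene values, 2270 kept direction and side of the threshold, 209 no longer passed, 5 newly passed and 3 changed sign: Nr1h3 for marrow in macrophages without KO marrow in WT host (-0.02, and up to 0.64 without another library), Sc5d for host in non-cycling CD8 T cells (-0.30), and Mvk in thinned cycling macrophages (-0.01). Of the counts and scores, 487 kept their size and 119 did not. The cause of the changes below was not tested. No paired analysis was possible because the labels carry no replicate numbers; the pairs in the report are formed by genotype and were not used as a block. No doublet alternative was run.

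By DESeq2 the genes called were 149 (host), 56 (marrow) and 3720 (both KO) in macrophages, 36 (host) and 196 (marrow, 1 member) in monocytes, 6, 2 and 73 in neutrophils, and 1 member for both KO in CD8 T cells. With at most 8% mitochondrial UMIs they were 13 in monocytes (marrow) and 7 and 0 in neutrophils (host, marrow). With no count filter they were 1 in macrophages (marrow), 16, 175 (1 member) and 776 in monocytes, 64, 27 and 275 (1 member) in neutrophils, and 450 (1 member), 45 and 809 in CD8 T cells. Non-cycling cells gave 1 in macrophages (host) and 196 (1 member) in CD8 T cells (both KO). The stricter gate gave 54 in monocytes (marrow), 4 and 0 in neutrophils (host, marrow) and 0.71 for the neutrophil marrow score. Transplanted libraries alone gave 1, 2 and 1600 (2 members, Npc1 and, newly, Msmo1) in macrophages, 19, 153 (1 member) and 143 (0 members) in monocytes, 218 (1 member), 29 and 115 (1 member) in neutrophils, and 119 (1 member) in CD8 T cells (both KO). Thinning gave 4046 genes for cycling, and CD4 T cells had 5 members without TMM.

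Leaving out 1 library gave, for host, 0 to 3 genes in macrophages, 0 to 33 in monocytes, 0 to 323 (0 to 1 member) in neutrophils and 99 to 523 (0 to 4 members) in CD8 T cells. For marrow it gave 0 to 2, 0 to 191 (0 to 1 member), 0 to 97 and 4 to 141 (0 to 2 members). For both KO it gave 1123 to 2520 (1 to 6 members), 1 to 656 (0 to 3), 14 to 367 (0 to 1) and 3 to 716 (0 to 5). A lone intact library is taken up by the transplantation term and adds nothing to these genotype contrasts. Any other lone library left in an arm is assumed to vary like the others.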
